A study of Arabidopsis thaliana with 24 samples.

Results

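The 10 genes described here make aliphatic glucosinolates, and they were followed over time in shoot apices and true leaves of Arabidopsis thaliana. They were picked by gene identifier from the 33323 genes of the deposited table, and all 10 passed the filter on low values (2 or more libraries with an FPKM of 1 or more), which 19986 genes passed in all. They are the regulators MYB28 and MYB29, the chain elongation genes BCAT4 and MAM1, and 6 genes that build the core structure, CYP79F1, CYP79F2, CYP83A1, UGT74C1, SOT17 and SOT18. Every group was the wild-type accession Col-0, with no mutant, transgene or named treatment, although the column names of the 24 libraries hold the word mock. Seedlings spent 14 days in cycles of 12 h light and 12 h dark and were then kept in constant light. Shoot apices and leaves were dissected from 6 to 10 pooled frozen seedlings a sample at 90, 94, 98, 102, 106 and 110 h after the transfer, written ZT90 to ZT110. Each of the 12 combinations of tissue and time had 2 replicates, from experiments that the labels call independent without tying them to replicate numbers.

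Aliphatic glucosinolates are sulfur-rich defence compounds of the cabbage family that are made from methionine and released as toxic products when myrosinases cut them in damaged tissue. In their synthesis the side chain of methionine is first lengthened in cycles, the elongated amino acid is turned into an aldoxime, sulfur and glucose are added, and a sulfate group completes the core. MYB28 and MYB29 switch on the genes of this route, and a parallel route that starts from tryptophan yields the indolic glucosinolates. The compounds are moved between organs by dedicated importers, so that transcript levels of the synthesis genes need not match the content of a tissue.

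The libraries carried the markers of their labelled tissues. The summed level of 8 meristem and organ boundary genes lay between 54.1 and 86.7 FPKM in shoot apex libraries and between 0.073 and 0.386 FPKM in leaf libraries, where the stem cell genes CLV3 and WUS were listed at 0 throughout. Summed levels of 6 mature leaf genes were 2376 to 3762 FPKM in the shoot apex and 16966 to 25331 FPKM in leaves, so transcripts of these genes were also measured in the dissected apices. Sums over 4 phloem genes were 14.2 to 22.3 FPKM against 171 to 302 FPKM, and sums over 4 xylem genes 36.0 to 59.4 FPKM against 26.4 to 39.2 FPKM. Depth, estimated from the smallest steps between FPKM values, was 7.63 M to 14.9 M reads for shoot apex libraries and 11 M to 14.4 M reads for leaf libraries. On the deposited scale the median gene stood 0.58 log2 units higher in the shoot apex, and this shift was 0.023 once libraries had been rescaled to a common median ratio against the geometric mean of every gene. Tissue differences are therefore given on both scales, as shoot apex minus leaves in log2(FPKM + 1), each with its SE, the standard error from limma. In bulk tissue, fewer cells of a type and less RNA per cell cannot be told apart.

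Both regulators were higher in the shoot apex, MYB29 by more than MYB28. MYB28 (AT5G61420, chr5:24689069-24691187, minus strand, TAIR10.1) is an R2R3-MYB activator known as the main switch of the aliphatic route. Its lowest, median and highest values were 94.8, 143 and 169 FPKM over 12 shoot apex libraries and 29.7, 49.5 and 64.1 FPKM over 12 leaf libraries. Every shoot apex library was above every leaf library. The log2 difference was 1.48 ± 0.082 (limma adjusted p = 4.24e-11), and 0.80 ± 0.078 after rescaling. MYB29 (AT5G07690, chr5:2446669-2448584, plus strand) is its close relative, with 73.3% identical bases in the aligned coding sequence. The lowest, median and highest values of MYB29 were 55.9, 102 and 132 FPKM in the shoot apex and 10.6, 17.7 and 27.7 FPKM in leaves, again without overlap. Its log2 difference was 2.36 ± 0.11 (limma adjusted p = 3.21e-12), and 1.69 ± 0.11 after rescaling. The balance of the regulators therefore differed between the tissues. The ratio of MYB28 to MYB29, which does not depend on the scale of a library, was 1.14 to 1.99 in shoot apex libraries (median 1.38) and 1.82 to 4.37 in leaf libraries (median 2.34). The log2 ratio was lower in the shoot apex by -0.92 ± 0.14 (2-sided permutation test with 100000 resamples over 12 libraries a tissue, p = 2e-05, the smallest it could give; adjusted p = 3e-05 over 3 ratios tested). This test treated the 12 libraries of a tissue as independent, although they share times and replicate numbers.

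The first steps of chain elongation showed tissue differences of similar size. BCAT4 (AT3G19710, chr3:6846969-6849582, minus strand) encodes the cytosolic aminotransferase that takes methionine into the elongation cycle. It ranged from 130 FPKM through a median of 241 to 303 in the shoot apex and from 26.6 through 44.0 to 61.8 in leaves, and the tissues did not overlap. The mean was 5.30 times the leaf mean, and the log2 difference after rescaling was still 1.70 ± 0.097 (limma adjusted p = 9.39e-11). MAM1 (AT5G23010, chr5:7703041-7706973, plus strand) encodes the methylthioalkylmalate synthase of the early elongation cycles, which yield short side chains. Its range was 122 to 273 FPKM in the shoot apex (median 193) and 38.9 to 77.0 FPKM in leaves (median 66.4), without overlap. The log2 difference was 1.66 ± 0.10 (limma adjusted p = 1.28e-10), and 0.98 ± 0.11 after rescaling.

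The gene next to MAM1 went the other way. MAM3 (AT5G23020), the synthase known for long side chains, starts 11144 bases beyond the end of MAM1 with no annotated gene between them. MAM3 was at 0.0868 ± 0.0769 FPKM in the shoot apex (SD, n = 12) and at 5.83 ± 1.86 FPKM in leaves, and every leaf library was above every shoot apex library. The log2 difference was -2.60 ± 0.073 (limma adjusted p = 1.10e-14), and -2.92 after rescaling. An estimated 0.5 to 5.4 reads per shoot apex library lay behind these values, against 68.9 to 202 reads in leaf libraries, so its level in the shoot apex was close to the limit of detection. The median ratio of MAM1 to MAM3 was 4215 for the shoot apex (range 754 to 11295, over a denominator of few reads) against 10.6 for leaves (6.66 to 17.1). The aligned coding sequences were 83.5% identical, and no stretch of 50 exon bases of either gene was found elsewhere in the genome. The stretch in which they differ most is shown because it separates the pair whose tissue difference is opposite. It covers coding bases 108 to 167 of MAM1 and 24 to 83 of MAM3 (TAIR10.1, plus strand, counted from the start codon), and capitals mark the 21 bases that differ.
MAM1: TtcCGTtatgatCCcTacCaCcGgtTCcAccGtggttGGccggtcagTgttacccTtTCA
MAM3: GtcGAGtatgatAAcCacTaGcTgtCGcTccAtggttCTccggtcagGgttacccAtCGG

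The aldoxime step showed the same kind of split between neighbouring genes, with a smaller size. CYP79F1 (AT1G16410, chr1:5608682-5612064, plus strand) encodes the cytochrome P450 that turns elongated methionines of short and long chains into aldoximes. CYP79F2 (AT1G16400, chr1:5605044-5607498, plus strand) acts on the long-chain substrates and ends 1183 bases before CYP79F1 starts, with no annotated gene between them. CYP79F1 ranged from 72.1 through a median of 197 to 319 FPKM in the shoot apex and from 43.7 through 92.6 to 124 FPKM in leaves. The tissues overlapped over the whole course, but at each of the 6 times both shoot apex libraries were above both leaf libraries. Its log2 difference was 1.15 ± 0.15 (limma adjusted p = 3.05e-06), and 0.46 ± 0.16 after rescaling (adjusted p = 0.0146).

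CYP79F2 was the lowest of the 10 genes in both tissues and the only one of them that was lower in the shoot apex. It ranged from 1.02 through a median of 2.52 to 3.90 FPKM in the shoot apex and from 1.70 through 3.50 to 4.94 FPKM in leaves. The tissues overlapped, and both leaf libraries were above both shoot apex libraries at 3 of 6 times. The log2 difference was -0.30 ± 0.096 (limma adjusted p = 0.00797), and -0.81 ± 0.088 after rescaling (adjusted p = 3.06e-07). An estimated 24.3 to 94.7 reads per shoot apex library and 38.4 to 138 reads per leaf library lay behind its values. The ratio of CYP79F1 to CYP79F2 was 49.7 to 109 in shoot apex libraries (median 73.1) and 20.9 to 30.7 in leaf libraries (median 24.02), without overlap. The log2 ratio was 1.57 ± 0.13 higher in the shoot apex (the same permutation test, p = 2e-05, adjusted p = 3e-05). The size of the ratio in one tissue depends on the gene lengths that the authors used, which the sources used here do not give. RefSeq exons cover 3272 bases for CYP79F1 and 2018 bases for CYP79F2.

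**Figure D1:**
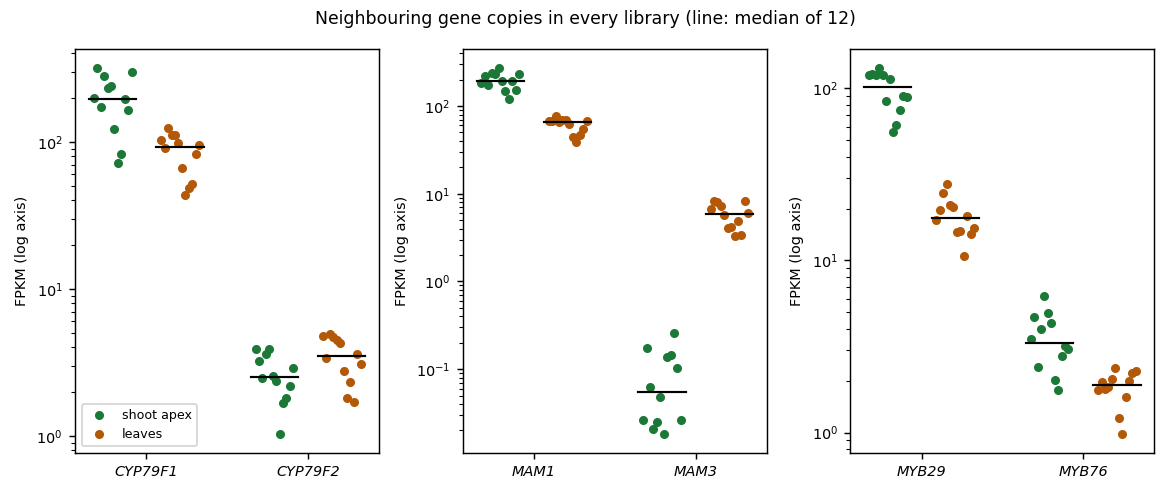
Levels of 3 pairs of neighbouring gene copies in every library (FPKM, log axis; 12 shoot apex points in green, 12 leaf points in orange, black lines at the medians). CYP79F1, MAM1 and MYB29 sit higher in the shoot apex, MAM3 sits higher in leaves at 5.83 FPKM on average, and CYP79F2 overlaps between the tissues.

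The coding sequences of CYP79F1 and CYP79F2 shared 1471 of 1614 aligned bases (91.1%). Of all stretches of 50 exon bases, the length of a read, 54 of 3174 in CYP79F1 (1.70%) and 54 of 1871 in CYP79F2 (2.89%) were found elsewhere in the genome. How the authors assigned such shared reads is not given in the sources used here, and CYP79F1 was much the higher of the copies. If every CYP79F1 read over the shared stretches had been counted for CYP79F2, with even coverage, this would have added 5.72 FPKM in the shoot apex and 2.46 FPKM in leaves. Those amounts compare with measured CYP79F2 means of 2.63 and 3.49 FPKM, so the level, the tissue difference, the time course and the ratio of CYP79F2 are uncertain. An identical stretch and the stretch in which the copies differ most are shown to let a reader see where reads can and cannot be told apart. The identical one spans coding bases 994 to 1053 of CYP79F1 and 991 to 1050 of CYP79F2 (TAIR10.1, plus strand), and it has no capitals because no base differs.
CYP79F1 identical stretch: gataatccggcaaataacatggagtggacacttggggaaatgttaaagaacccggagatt
CYP79F2 identical stretch: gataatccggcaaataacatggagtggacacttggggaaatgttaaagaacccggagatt
The stretch of most differences spans bases 749 to 808 of CYP79F1 and 746 to 805 of CYP79F2, and capitals mark the 15 bases that differ.
CYP79F1 divergent stretch: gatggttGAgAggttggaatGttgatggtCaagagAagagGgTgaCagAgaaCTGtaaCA
CYP79F2 divergent stretch: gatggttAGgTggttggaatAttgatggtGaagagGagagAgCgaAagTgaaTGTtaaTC

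The later core genes had smaller estimated tissue differences than the regulators and BCAT4, an order that was not tested. SOT17 (1.40 ± 0.10) was close to MYB28 (1.48 ± 0.082). CYP83A1 (AT4G13770, chr4:7990429-7992429, minus strand) encodes the P450 that oxidises aliphatic aldoximes. It was at 163 to 287 FPKM in the shoot apex (median 245) and 104 to 188 FPKM in leaves (median 156), and the ranges overlapped. The log2 difference was 0.68 ± 0.077 (limma adjusted p = 3.85e-07) on the deposited scale and -0.01 ± 0.083 (adjusted p = 0.919) after rescaling, so this gene moved no more than the median gene did. UGT74C1 (AT2G31790, chr2:13518199-13520364, plus strand) encodes a glucosyltransferase assigned to the aliphatic route. Its values ran from 50.9 to 125 FPKM in the shoot apex (median 98.3) and from 26.7 to 59.3 FPKM in leaves (median 45.6). The log2 difference was 1.03 ± 0.065 (limma adjusted p = 2.58e-10), and 0.35 ± 0.066 after rescaling (adjusted p = 0.000143).

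The sulfotransferases that add the last group of the core were both higher in the shoot apex. SOT17 (AT1G18590, chr1:6398531-6400029, plus strand) was at 29.3 to 99.0 FPKM in the shoot apex (median 79.3) and 11.3 to 36.2 FPKM in leaves (median 28.7). Its log2 difference was 1.40 ± 0.10 (limma adjusted p = 1.22e-09), and 0.73 ± 0.095 after rescaling. SOT18 (AT1G74090, chr1:27862814-27864193, plus strand) was at 54.3 to 122 FPKM in the shoot apex (median 106) and 25.3 to 58.4 FPKM in leaves (median 42.0). Its log2 difference was 1.18 ± 0.077 (limma adjusted p = 3.60e-10), and 0.50 ± 0.082 after rescaling. For SOT17, SOT18 and UGT74C1, a single shoot apex library, ZT102 replicate 2, lay below the highest leaf library. The ratio of SOT18 to SOT17 was 1.22 to 1.85 in shoot apex libraries (median 1.40) and 1.16 to 2.35 in leaf libraries (median 1.70), so the tissues overlapped. Its log2 value was lower in the shoot apex by -0.24 ± 0.10 (the same permutation test, p = 0.027, adjusted p = 0.027). SOT18 lies 151 bases from SOT16, the sulfotransferase of the indolic route, with 79.5% identical coding bases and no shared stretch of 50 exon bases.

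**Figure D2:**
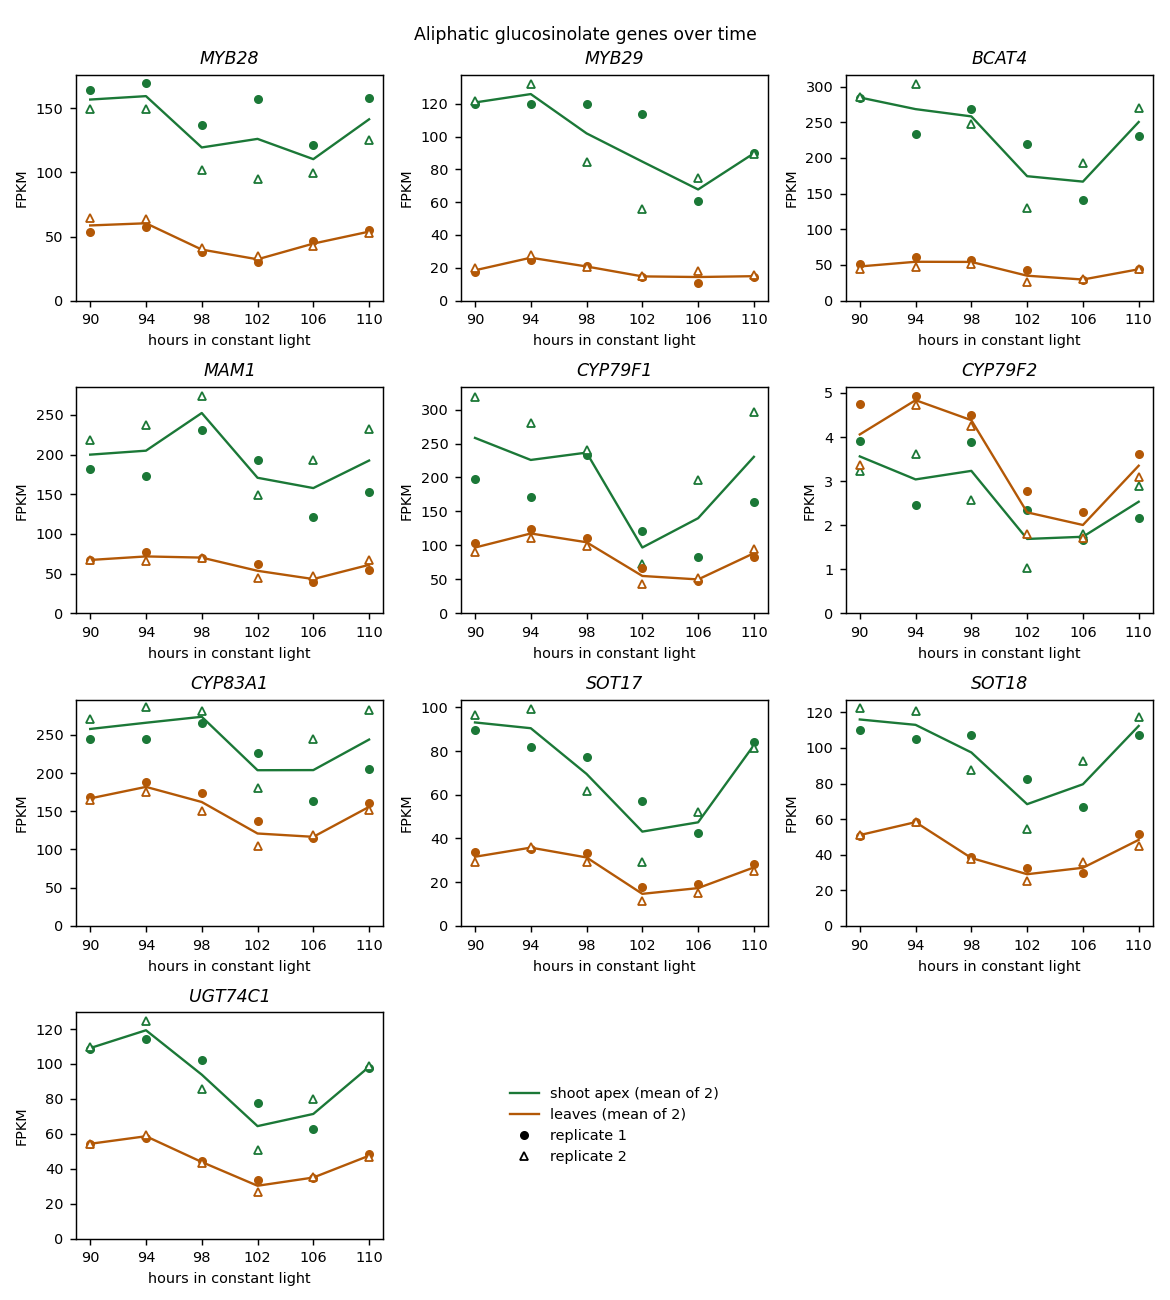
FPKM of the 10 genes at 6 times after transfer to constant light; lines join the means of 2 libraries, filled circles are replicate 1 and open triangles replicate 2 (green shoot apex, orange leaves). All axes start at 0, and 9 genes lie higher in the shoot apex at every time while CYP79F2 lies higher in leaves.

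Counted together, 9 of the 10 genes were higher in the shoot apex (limma adjusted p under 0.05), where 68.6% of all tested genes were, and 1 was higher in leaves, where 21.4% were. After rescaling 8 were higher in the shoot apex (43.1% of tested genes), 1 was higher in leaves (41.4%) and CYP83A1 did not pass. The median difference of the 10 genes was 1.29 on the deposited scale, beside 0.58 over all tested genes, and 0.61 after rescaling, beside 0.023. For 4 genes, MYB28, MYB29, BCAT4 and MAM1, every shoot apex library was above every leaf library, which held for 48.1% of tested genes. Leaf libraries lay wholly above the shoot apex for 0 of the 10, against 10.2% of tested genes. For 9 of the 10 both shoot apex libraries were above both leaf libraries at all 6 times. Complete separation includes this, so it held for at least 48.1% of tested genes, and the exact share was not counted. The median difference was 1.24 in replicate 1 alone and 1.35 in replicate 2 alone. In each, 10 of 10 genes kept their direction, for which the share of all genes was not counted.

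The order of the genes by level also changed. In the shoot apex, mean levels ran from CYP83A1 (241 ± 40.7 FPKM, SD, n = 12) and BCAT4 (234 ± 55.7) through CYP79F1 (198 ± 80.2), MAM1 (196 ± 43.8), MYB28 (136 ± 26.6), MYB29 (98.5 ± 25.9), SOT18 (97.8 ± 21.5), UGT74C1 (92.7 ± 21.8) and SOT17 (71.1 ± 22.1) to CYP79F2 (2.63 ± 0.910). Of the neighbours in this order, MAM1 and MYB28, MYB28 and MYB29, and SOT17 and CYP79F2 were apart by more than the larger of their SDs. In leaves the order was CYP83A1 (151 ± 26.7), CYP79F1 (85.3 ± 27.0), MAM1 (61.1 ± 11.9), MYB28 (48.2 ± 11.1), UGT74C1 (44.9 ± 10.5), BCAT4 (44.1 ± 11.03), SOT18 (42.9 ± 11.2), SOT17 (26.2 ± 8.41), MYB29 (18.2 ± 4.79) and CYP79F2 (3.49 ± 1.17). CYP83A1 and CYP79F1, MAM1 and MYB28, SOT18 and SOT17, and MYB29 and CYP79F2 were apart by more than the larger SD. BCAT4 thus stood beside CYP83A1 in the shoot apex and beside UGT74C1 in leaves, on the FPKM scale, which is per gene length.

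Further genes of the route were read against the 68.6% of tested genes higher in the shoot apex and the 21.4% higher in leaves (43.1% and 41.4% after rescaling). Of 7 further chain elongation genes, 6 were higher in the shoot apex and 1, MAM3, was higher in leaves (median difference 1.59). The plastid 2-keto acid transporter gene BASS5 differed by 2.63 ± 0.10, the isopropylmalate isomerase subunit gene IPMI SSU2 by 2.09 ± 0.085 and the isopropylmalate dehydrogenase gene IPMDH1 by 1.59 ± 0.079. After rescaling 4 stayed higher in the shoot apex, 1 was higher in leaves and 2 did not pass (median 0.90). All 5 further core genes were higher in the shoot apex (median 1.09), led by the glutathione transferase genes GSTF11 (2.81 ± 0.087) and GSTU20 (2.16 ± 0.074), which are assigned to the aliphatic route. SUR1, a C-S lyase gene, and UGT74B1, a glucosyltransferase gene, both shared with the indolic route, differed by 1.09 ± 0.066 and 1.06 ± 0.067. After rescaling 4 of the 5 remained higher there (median 0.40), and the peptidase gene GGP1, named after its values were seen, was higher in leaves by -0.39.

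Shares near the background were found for genes that change the finished side chain. Of 7 tested side chain genes, 5 were higher there, 1 in leaves and 1 did not pass (median 1.07), and after rescaling 4 were higher there and 3 in leaves. The S-oxygenase genes FMO GS-OX3 and FMO GS-OX1 differed by 2.1 ± 0.088 and 1.83 ± 0.092, and FMO GS-OX5 by -0.63 ± 0.064 in the other direction. AOP2, known for alkenyl side chains and annotated as a pseudogene in this reference, differed by 1.68 ± 0.11. AOP3 did not pass the filter on low values. Of 5 genes for the sulfate donor and for transport, 4 were higher in the shoot apex on both scales (median 1.16, rescaled 0.48). APK1, a kinase gene of the sulfate donor PAPS, differed by 1.16 ± 0.081. The importer genes GTR3 and GTR2 differed by 1.56 ± 0.082 and 0.98 ± 0.081, while GTR1 was higher in leaves, by -1.09 ± 0.055.

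The other regulators had smaller differences in log2(FPKM + 1) than MYB28 and MYB29 on the deposited scale. A difference between these lists was not tested. Of 6, 3 were higher in the shoot apex, 2 in leaves and 1 did not pass (median 0.16), and after rescaling 0 were higher in the shoot apex, 5 in leaves and 1 did not pass. MYB76, another MYB activator 1442 bases from MYB29, had a mean of 3.57 ± 1.32 FPKM in the shoot apex, against 1.84 ± 0.416 FPKM for leaves (SD, n = 12), a difference of 0.65 ± 0.096 and of 0.17 after rescaling, which did not pass (limma adjusted p = 0.119). MYC2, MYC3 and MYC4, partners of the MYB factors, differed by 0.32 ± 0.087, 0.29 ± 0.067 and -0.09 ± 0.039. SDI1, a repressor of the route under sulfur deficiency, differed by -0.79 ± 0.099. SDI1 averaged 0.115 FPKM in the shoot apex and 0.958 FPKM in leaves, levels at which the pseudocount understates a change. As a ratio of means it was 8.35 times higher in leaves, while MYB28 and MYB29 were 2.81 and 5.40 times higher in the shoot apex. Of 6 tested indolic genes, 4 were higher in the shoot apex, whereas 2 were higher in leaves (median 0.25). After rescaling 1 was higher in the shoot apex, 4 in leaves and 1 did not pass (median -0.43). The indolic activator genes MYB34 and MYB51 differed by 1.28 ± 0.078 and -1.18 ± 0.19, the P450 gene CYP83B1 by -0.60 ± 0.13 and SOT16 by 0.30 ± 0.092. MYB122 did not pass the filter. The myrosinase genes TGG1 and TGG2 were higher in leaves, by -2.77 ± 0.085 and -1.86 ± 0.096. Each difference named in these lists had a limma adjusted p of at most 0.0308 on the deposited scale.

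**Figure D3:**
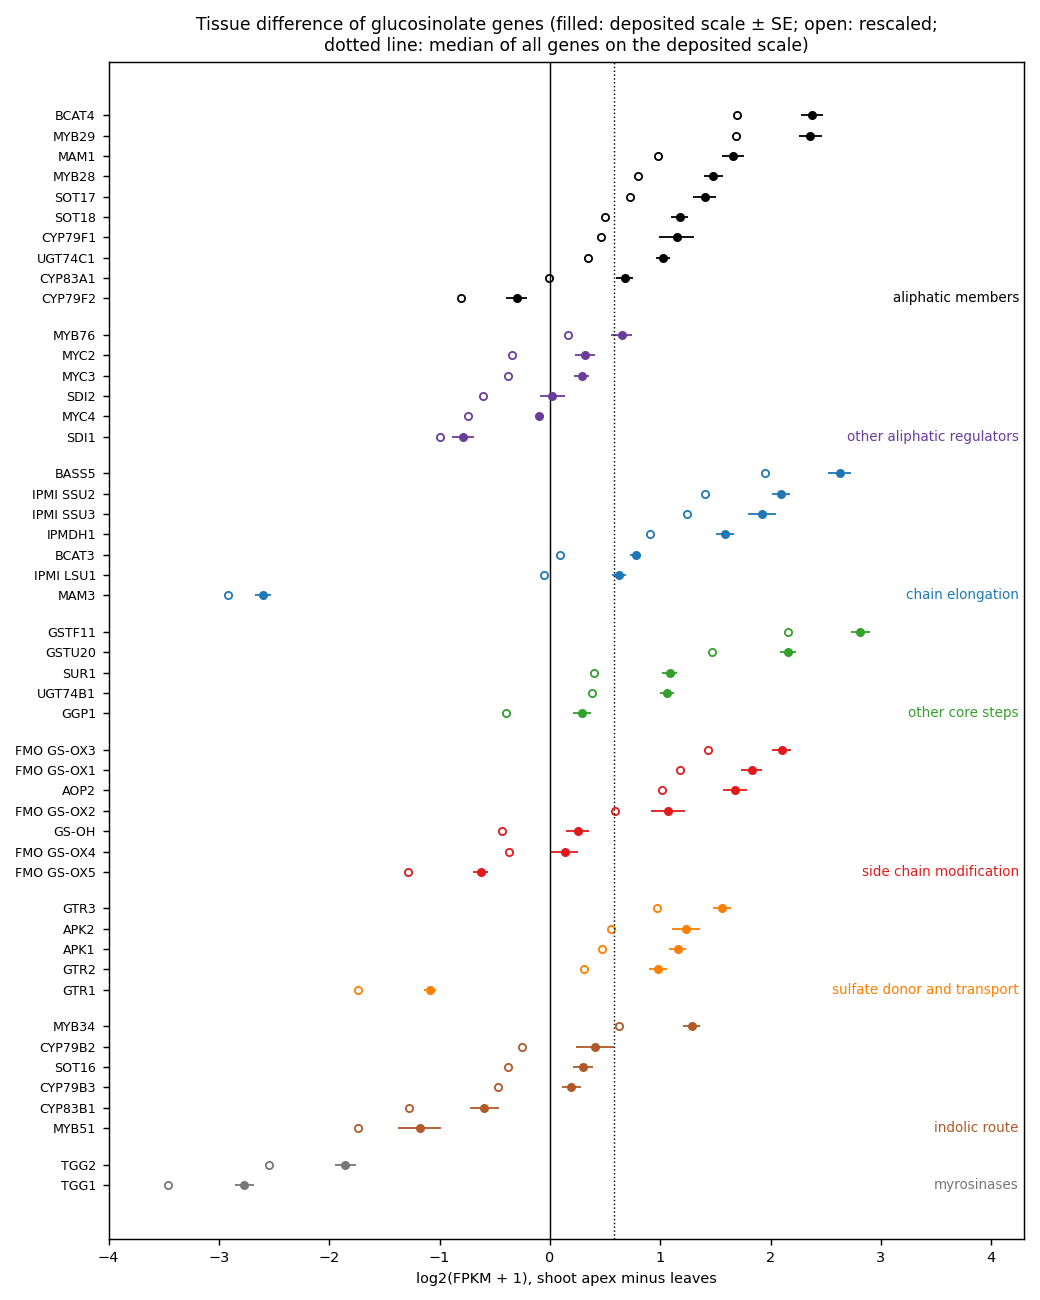
Tissue difference of glucosinolate genes by list, shoot apex minus leaves in log2(FPKM + 1), with filled points for the deposited scale (bars ± SE), open points after rescaling and a dotted line at 0.58, the median of all genes. Of the 10 aliphatic genes at the top, 9 filled points lie right of 0.58 and CYP79F2 lies at -0.30.

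Over time, mean levels of each of the 10 genes were highest between ZT90 and ZT98 and lowest at ZT102 or ZT106, although the time test passed for 2 of them in the shoot apex and for 5 in leaves. At ZT110 the mean was above the lowest one for each gene, by as little as 14.9 against 14.4 FPKM for MYB29 in leaves, where replicate 2 was lower at ZT110 (15.5 FPKM) than at ZT106 (18.1 FPKM). In leaves the highest mean was at ZT94 for 10 of 10 genes, and the lowest was at ZT102 for 4 and at ZT106 for 6. In the shoot apex the highest mean was at ZT90 for 5, ZT94 for 3 and ZT98 for 2, and the lowest was at ZT102 for 6 and ZT106 for 4. How many of all tested genes had their highest and lowest means at these times was not counted, in either tissue. The highest mean was 1.34 times (CYP83A1) to 2.67 times (CYP79F1) the lowest in the shoot apex, and 1.56 times (CYP83A1) to 2.44 times (SOT17) in leaves.

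UGT74C1 and SOT17 were the genes whose time course passed the test in both tissues. UGT74C1 stood in shoot apex replicates 1 and 2 at 109 and 109 FPKM at ZT90, 114 and 125 at ZT94, 102 and 85.5 at ZT98, 77.8 and 50.9 at ZT102, 62.7 and 80.0 at ZT106, and 97.9 and 98.8 at ZT110. In leaves its values were 54.1 and 54.4 FPKM, 57.9 and 59.3, 44.5 and 43.1, 33.7 and 26.7, 34.8 and 35.025, and 48.3 and 46.6 at the same times. Replicates of UGT74C1 lay far apart at ZT102 in the shoot apex, and the 4 values of ZT102 and ZT106 were below the other 8 in each tissue. SOT17 stood in the shoot apex at 89.7 and 96.5 FPKM at ZT90, 81.8 and 99.0 at ZT94, 77.1 and 61.9 at ZT98, 57.0 and 29.3 at ZT102, 42.6 and 52.1 at ZT106, and 84.0 and 81.4 at ZT110. In leaves it stood at 33.9 and 29.3 FPKM, 35.4 and 36.2, 33.6 and 29.1, 18.0 and 11.3, 19.4 and 15.2, and 28.3 and 25.2. For SOT17 too, the values of ZT102 and ZT106 lay below those of the other times in each tissue.

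Differences between time points passed for 2 of the 10 genes in the shoot apex, UGT74C1 and SOT17 (limma F-test over 6 times, adjusted p = 0.0105 and 0.0221), where 4.67% of tested genes passed. In leaves 5 passed, where 23.2% of tested genes did: UGT74C1 (adjusted p = 0.00213), SOT17 (0.00441), SOT18 (0.00470), MYB28 (0.0183) and CYP79F2 (0.0219). Replicate numbers shared deviations within a tissue, and with the number as a block within each tissue the counts were 5 in the shoot apex (13.2% of tested genes) and 9 in leaves (43.7%). The block added MYB28, CYP79F1 and SOT18 in the shoot apex, and MYB29, BCAT4, CYP79F1 and CYP83A1 in leaves. Fitted in the shoot apex alone, 0 of the 10 passed, and the share of all tested genes in that fit is not given here. The difference in time course between the tissues passed for 0 of the 10 (limma), against 2.66% of tested genes. With the block within each tissue it passed for 0, against 11.5%. At an unadjusted p under 0.05, without the block, it passed for 0 of the 10, against 13.1% of tested genes. Leaving out 1 library gave 1 to 5 genes in the shoot apex: 1 without ZT90 replicate 2, ZT94 replicate 2 or ZT106 replicate 1, 4 without ZT106 replicate 2 and 5 without ZT102 replicate 1.

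A fitted 24 h wave summarised the course, although the window of 20 h did not span a whole cycle, and other smooth courses could give the same fit. The wave passed for 10 of 10 genes in leaves (limma adjusted p from 3.73e-05 for UGT74C1 to 0.0287 for MAM1), where 40.9% of tested genes passed. In the shoot apex it passed for 7 of 10, where 13% of tested genes passed, with adjusted p from 0.000227 for UGT74C1 to 0.0311 for CYP79F1. MYB28, CYP83A1 and MAM1 did not pass there (adjusted p = 0.0831, 0.0991 and 0.246). With the replicate block MYB28 and CYP83A1 passed as well (0.00888 and 0.0383), giving 9 in the shoot apex where 20.9% of tested genes passed, and MAM1 did not (0.129). Waves passed in both tissues for 7 of the 10 and for 9.78% of tested genes. After rescaling the counts were again 7 in the shoot apex (11.3% of tested genes) and 10 in leaves (39.4%).

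Amplitudes, from the mean to the peak in log2(FPKM + 1), were largest for CYP79F1 and SOT17 in both tissues. They were 0.64 ± 0.16 and 0.61 ± 0.11 for the shoot apex, against 0.61 ± 0.16 and 0.61 ± 0.11 for leaves. The smallest were those of CYP83A1, at 0.23 ± 0.072 and 0.32 ± 0.072, and MAM1, at 0.25 ± 0.099 and 0.33 ± 0.099. The median over the 10 genes was 0.40 for the shoot apex against 0.44 for leaves, beside 0.11 and 0.17 over all tested genes. Peaks of the waves fell between 18.9 h (SOT18) and 22.8 h (MAM1) in the shoot apex and between 18.0 h (MYB28) and 22.4 h (MYB29) in leaves, counted after transfer and modulo 24. The morning clock gene CCA1, a repressor at the core of the clock, peaked at 22.9 ± 0.13 h in the shoot apex, later in leaves at 0.279 ± 0.13 h, with amplitudes of 2.24 and 2.18. With both replicates fitted together, the peak came before that of CCA1 for each of the 10 genes in each tissue. For MAM1 in the shoot apex the gap was below its SE of 1.54 h, and these gaps were not tested. How many of all tested genes peaked before CCA1 was not counted. Fitted within 1 replicate number, shoot apex peaks of each of the 10 genes were later in replicate 1 than in replicate 2, a share not counted over all genes. The peaks in replicates 1 and 2 were at 23.04 and 19.02 h for CYP83A1 and at 0.531 and 20.55 h for MAM1. Peaks of CCA1 within a replicate number are not given here, so the order was not compared there.

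**Figure D4:**
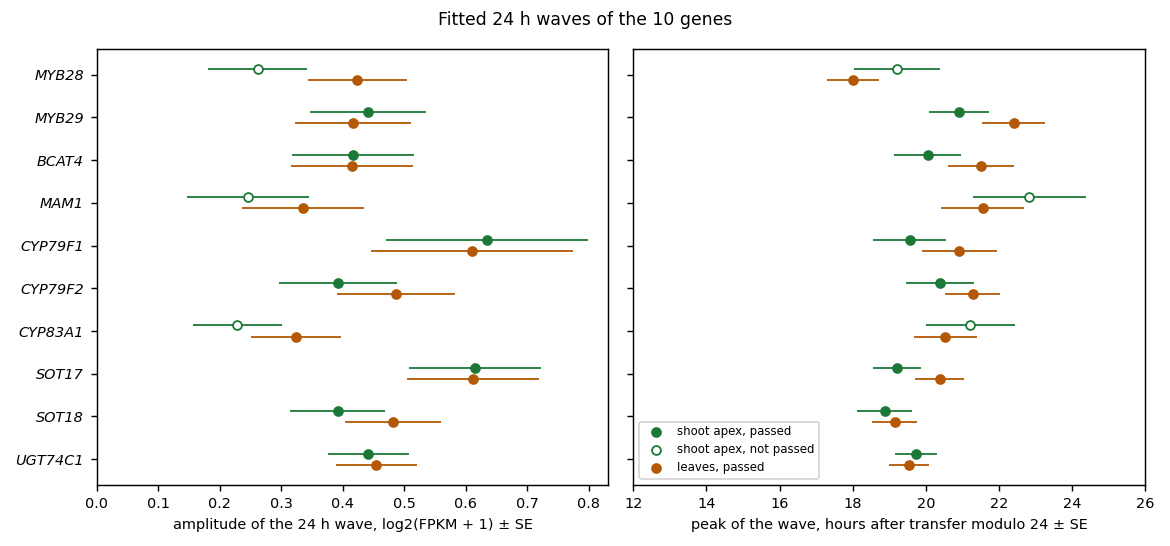
Amplitude (left, log2(FPKM + 1)) and peak time (right, hours after transfer modulo 24) of the fitted 24 h wave for the 10 genes in the shoot apex (green) and leaves (orange), with bars of ± SE. Filled points passed the test; MYB28, MAM1 and CYP83A1 in the shoot apex are open, and the peaks lie between 18.0 and 22.8 h.

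The waves of the tissues could not be told apart for these genes. The difference of the waves passed for 0 of the 10 (limma, lowest adjusted p = 0.544 for MYB28), while 10.6% of tested genes passed. With the block within each tissue it again passed for 0 of the 10, against 20.2%. At an unadjusted p under 0.05, without the block, it passed for 0 of the 10, against 23.5% of tested genes. Differences in amplitude, shoot apex minus leaves, ran from -0.16 ± 0.11 for MYB28 to 0.02 ± 0.23 for CYP79F1. Differences in peak time ran from -1.51 ± 1.19 h for MYB29 to 1.28 ± 1.91 h for MAM1, and the SE of the peak difference was lowest for UGT74C1, at 0.792 h. Some other genes of the route did differ in this test, namely MAM3 (limma adjusted p = 0.00330), the importer gene GTR1 (0.00725), the side chain hydroxylation gene GS-OH (0.0292) and MYC4 (0.000220). These 4 were named after their values were seen, and the amplitude of MAM3 in the shoot apex is held near 0 by the pseudocount at its few reads, so its call is no measure of a rhythm there. MAM3, GTR1 and MYC4 had amplitudes of 0.49, 0.59 and 0.49 in leaves and of 0.07, 0.13 and 0.11 in the shoot apex.

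The fall at ZT102 and ZT106 was uneven between replicates. In shoot apex ZT102 replicate 2 and ZT106 replicate 1, and in leaf ZT102 replicate 2 and ZT106 replicate 1, 10 of 10 genes were below their tissue mean, with median log2 deviations of -0.80, -0.59, -0.65 and -0.44. In the partner libraries the deviations were -0.07 and -0.20 for the shoot apex, against -0.28 and -0.33 for leaves. The share of all tested genes below their tissue mean in these libraries was not counted. Without shoot apex ZT102 replicate 2, or without ZT106 replicate 1, the wave passed for 4 of 10 genes in the shoot apex. Depth in those libraries was estimated at 11.8 M and 13.2 M reads, inside the range of the others. Summed meristem markers in the shoot apex also changed over time, in part at the same times. They were 77.4 to 86.7 FPKM at ZT90, ZT94 and ZT110 and 54.1 to 68.4 FPKM at ZT98, ZT102 and ZT106, lowest in ZT102 replicate 2. At ZT98, where these sums were already low, the median deviations of the 10 genes were 0.22 and -0.03 in replicates 1 and 2. In the shoot apex 4 of the 6 tested meristem markers passed the wave test. Summed mature leaf markers in the shoot apex were highest at 3762 FPKM in ZT98 replicate 2 and stood at 3549 FPKM in ZT102 replicate 2 and 2734 FPKM in ZT106 replicate 1. Of these 6 leaf markers 5 passed the wave test in each tissue. The part of either marker list in the time course was not tested.

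Among other genes of the route, the wave passed in both tissues for 6 of 7 chain elongation genes, 4 of 5 core genes, 4 of 7 side chain genes and 2 of 5 genes for sulfate and transport, beside 9.78% of tested genes. It passed in both for 0 of 6 other regulators, 0 of 6 indolic genes and 0 of 2 myrosinase genes, although 2 of the regulators passed in leaves, and 2 of the indolic genes passed in each tissue, none of them in both, beside backgrounds of 13% for the shoot apex and 40.9% for leaves. With the replicate block within each tissue, 4 of 6 indolic genes passed in leaves (54.1% of tested genes). MYB34 then passed in the shoot apex and in leaves (limma adjusted p = 0.00760 and 0.0457). The difference of the waves then passed for 3 of 6 indolic genes (20.2% of tested genes). Of 7 side chain genes, 6 then passed in the shoot apex (20.9% of tested genes). A difference between these lists was not tested. TGG1 and TGG2 passed in the shoot apex, with peaks at 9.10 and 9.01 h (limma adjusted p = 0.0100 and 0.0178), when the aliphatic genes were low. Their summed level there was 209 to 302 FPKM at ZT90 and ZT94 and 251 to 520 FPKM at ZT102 and ZT106. At ZT98 it was 361 and 343 FPKM and at ZT110 342 and 365 FPKM, each above the 251 FPKM of ZT102 replicate 1.

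**Figure D5:**
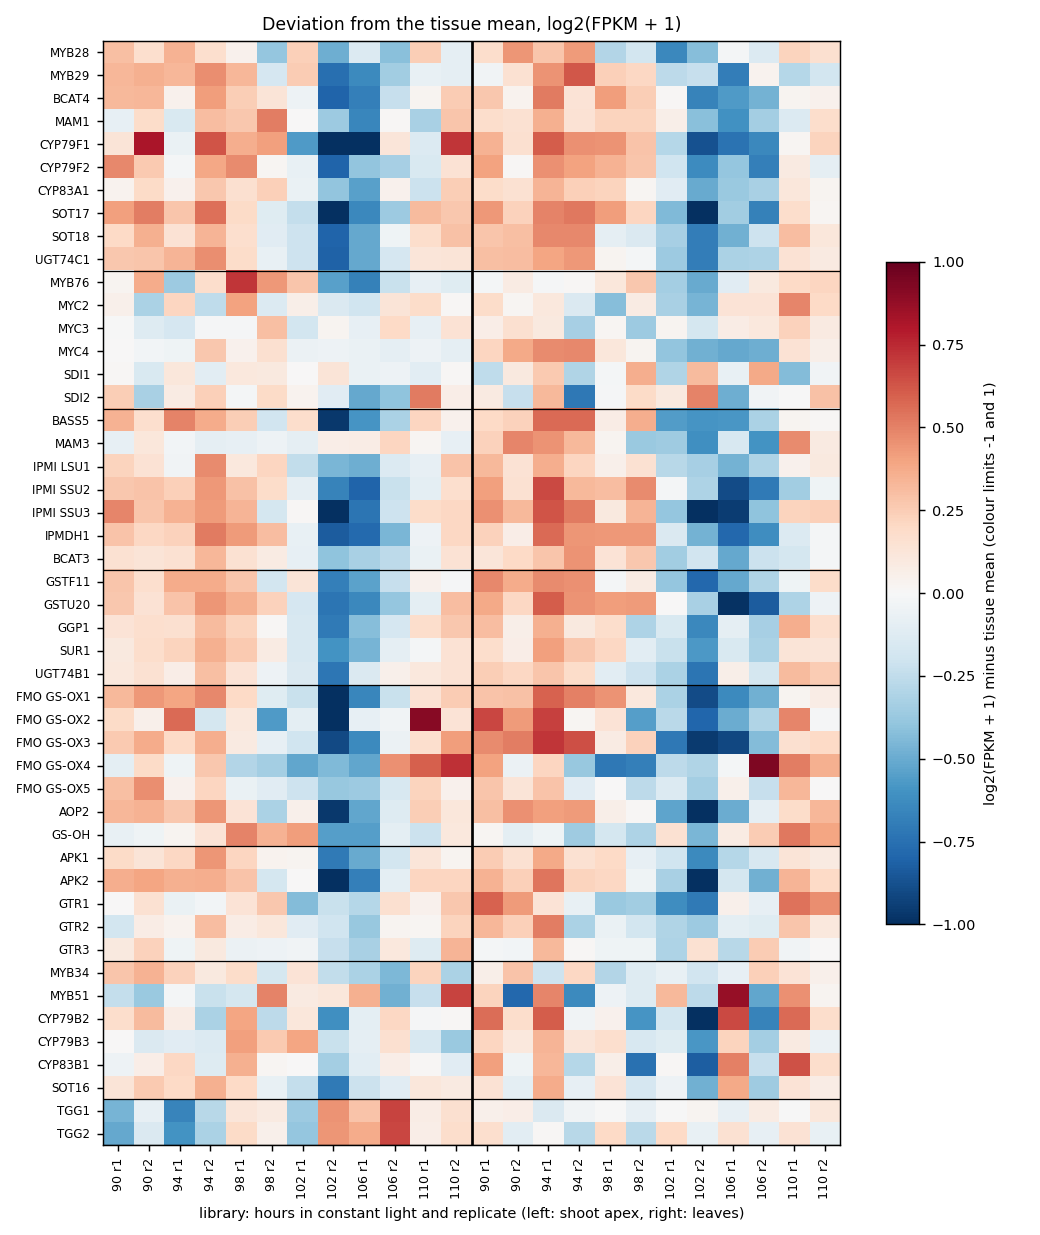
Deviation of each gene from its tissue mean in every library, in log2(FPKM + 1), with colours limited at -1 and 1, genes in rows by list and libraries in columns (shoot apex left, leaves right). The 10 aliphatic genes on top and most chain elongation and core genes below, but not MAM3, are blue in shoot apex ZT102 replicate 2 and ZT106 replicate 1, while TGG1 and TGG2 at the bottom are red there.

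The replicate difference in level passed for 1 of the 10 genes in the shoot apex and for 0 in leaves. At an unadjusted p under 0.05 (limma), 4 of the 10 passed in the shoot apex, against 35.2% of tested genes. Fitted peaks in the shoot apex were later in replicate 1 for each of the 10, and the share of all genes was not counted. MYB28 was at 151 ± 18.3 FPKM in replicate 1 and 120 ± 25.2 FPKM in replicate 2 of the shoot apex (SD, n = 6 each), higher in replicate 1 by 0.35 ± 0.070 (limma adjusted p = 0.00458). It was the only one of the 10 to pass there, where 20.7% of tested genes did. CYP79F1, MAM1 and CYP83A1 were lower in replicate 1 by -0.46 ± 0.19, -0.31 ± 0.12 and -0.20 ± 0.091 without passing (limma adjusted p = 0.0918, 0.0806 and 0.141). Over fits lacking 1 library, their differences ran from -0.703 to -0.307, from -0.445 to -0.238 and from -0.300 to -0.118. In leaves 0 of the 10 passed (limma), against 30.7% of tested genes. At an unadjusted p under 0.05, 0 of the 10 passed in leaves, against 40% of tested genes. With the wave fitted within 1 replicate number alone, median amplitudes in the shoot apex were 0.33 in replicate 1 and 0.52 in replicate 2. In leaves they were 0.45 and 0.47.

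Most pairs of the 10 genes varied together within each tissue, and MYB28 had the lowest mean correlation with the others. Over 12 libraries a tissue, Pearson's r between pairs of the 10 genes ran from -0.022 to 0.980 (median 0.816 over 45 pairs) in the shoot apex and from 0.304 to 0.973 (median 0.831) in leaves, as a description, since libraries share times and replicates. The lowest value was that of MYB28 with MAM1 in the shoot apex. After the tissue means were subtracted, the mean r of a gene with the other 9 over 24 libraries was 0.521 for MYB28, 0.668 for MAM1 and 0.707 for MYB29. It lay between 0.803 and 0.836 for the other 7, with UGT74C1 highest.

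Of 10440 other genes that averaged 5 FPKM or more in each tissue, the 8 with the highest mean r with the 10 genes were FMO GS-OX1 (0.866), SBP2 (0.856), IPMI SSU3 (0.851), SUR1 (0.843), APK1 (0.839), DJ1F (0.837), FMO GS-OX3 (0.837) and AK-HSDH I (0.828). Of these 5, and 15 of the first 50, stand in the lists of aliphatic genes used here. SBP2 (AT4G14040) encodes a selenium-binding protein, DJ1F (AT3G54600) a protein of the DJ-1 family, and AK-HSDH I (AT1G31230) a bifunctional enzyme of the aspartate pathway that leads to methionine. These 3 were higher in the shoot apex by 1.54 ± 0.082, 1.32 ± 0.090 and 0.80 ± 0.071 (limma adjusted p of at most 2.1e-08). Of the other regulators, MYC4 ranked 202, with a mean r of 0.652, and MYC2 and MYC3 ranked 3484 and 5603.

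The 250 bases upstream of the annotated start of each gene were searched on both strands for clock-related motifs, the G-box CACGTG, the evening element AAAATATCT and the CCA1 binding site AAAAATCT. The G-box was found for 1 of the 10 genes (6.49% of 27443 genes), the evening element for 0 (2.36%) and the CCA1 binding site for 1 (6.69%). The window of CYP79F1 (chr1:5608432-5608681, plus strand, RefSeq TAIR10.1) holds the CCA1 binding site from base -37 to -30, in capitals, and that of CYP79F2 (chr1:5604794-5605043, plus strand) holds none of them. Both are shown because these neighbours had tissue differences of opposite sign. The window of CYP83A1 (chr4:7992430-7992679, minus strand) holds a G-box from base -43 to -38, in capitals. A match describes the letters only, and the window of SOT18 overlaps annotated exons, whose gene was not looked up.
CYP79F1 upstream: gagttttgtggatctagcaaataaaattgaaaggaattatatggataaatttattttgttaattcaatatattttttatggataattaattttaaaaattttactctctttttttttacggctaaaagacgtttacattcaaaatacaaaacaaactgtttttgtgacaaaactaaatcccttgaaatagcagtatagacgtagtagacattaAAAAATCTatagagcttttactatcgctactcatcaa
CYP79F2 upstream: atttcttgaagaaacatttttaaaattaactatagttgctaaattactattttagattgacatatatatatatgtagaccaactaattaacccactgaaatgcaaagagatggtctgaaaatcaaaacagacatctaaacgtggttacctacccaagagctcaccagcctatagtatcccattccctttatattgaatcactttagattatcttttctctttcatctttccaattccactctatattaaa
CYP83A1 upstream: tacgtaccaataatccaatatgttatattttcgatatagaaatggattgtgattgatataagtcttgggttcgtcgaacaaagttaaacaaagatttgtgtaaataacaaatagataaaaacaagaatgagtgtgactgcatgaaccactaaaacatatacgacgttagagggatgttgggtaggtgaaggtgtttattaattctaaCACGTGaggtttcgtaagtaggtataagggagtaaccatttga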

How the data were processed

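The authors deposited FPKM values (reads scaled to gene length and library size) of polyA RNA for 24 libraries, sequenced as single-end 50 bp reads per the labels' protocols. STAR 2.5.0c, HOMER and the build TAIR10 are listed in the submitters' processing notes. Settings, gene lengths and the handling of shared reads are not given in the sources used here. One gene with a text cell was left out. Values were tested as log2(FPKM + 1) over the 19986 genes that reached 1 FPKM in 2 or more libraries, with limma 3.58.1 in R 4.3.3 (trended empirical Bayes, Benjamini-Hochberg adjustment over all tested genes, threshold 0.05). Tissue and time tests used group means, and rhythm tests the cosine and sine of a 24 h wave per tissue. The pseudocount understates changes of low genes, CYP79F2, MAM3 and SDI1 among them. P-values of the tissue and time tests measure the spread between 2 libraries a group, which may be in part technical. Those of the rhythm tests measure the spread of libraries around the fitted wave.

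The 10 genes, the lists and the tests were chosen with earlier results of these data known. The text names all 10, the up to 4 genes of each further pathway list with the smallest adjusted p for the tissue difference, genes against their list's majority and the 8 of most similar course. Replicate differences correlated between times at 0.162 to 0.440 within the shoot apex and 0.554 to 0.764 within leaves, and at 0.0528 to 0.316 between tissues at the same time (median 0.195). Since each pair had to exceed 0.1, replicate numbers were taken to pair times within a tissue and not the tissues, although a weak pairing of the tissues may exist. A replicate block within each tissue is printed where it changes a call of the 10 genes, and only in part for other genes.

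Ratios within a library were tested by permutation of tissue labels over all libraries, without regard to time or replicate number. Libraries of a tissue were thus treated as independent, although they share times and replicate numbers, so these p-values may be too small. Fits were tested on simulated data. Positions and sequences came from RefSeq TAIR10.1, of the series to which TAIR10 belongs, matched by gene identifier for all 10 genes. Depth was estimated from steps between FPKM values and RefSeq exon lengths, so the read numbers are estimates. The alternatives tried were: no filter, 0.1 as pseudocount, a mean FPKM of at least 5, rescaled libraries, replicate blocks, robust empirical Bayes, each tissue alone, periods of 22 and 26 h, and fits lacking 1 library or 1 replicate number. Figures were drawn with matplotlib 3.10.9, and permutation tests run with scipy 1.17.1, under Python 3.11.15 with numpy 2.4.6 and pandas 2.3.3.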

Additional observations from a re-analysis of the deposited data

How the results depend on the processing

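Tissue directions held for 10 of 10 genes under every alternative run, except that CYP83A1 turned to -0.0094 (not passing) after rescaling, and a mean FPKM of at least 5 removed CYP79F2 and so left 0 genes higher in leaves. Among all genes rescaling gave 8616 genes higher in the shoot apex and 8280 genes higher in leaves, against 13720 and 4283. For time in the shoot apex (2 genes passing), the replicate block within each tissue gave 5, the shoot apex alone gave 0 and leaving out a library gave 1 to 5. It gave 1 without ZT90 replicate 2, ZT94 replicate 2 or ZT106 replicate 1, 4 without ZT106 replicate 2 and 5 without ZT102 replicate 1. For time in leaves (5 passing) the block gave 9. All-gene counts with that block were 2647 against 933 for time in the shoot apex, 8740 against 4629 in leaves, 2293 against 532 for their difference, 4182 against 2608 for rhythm in the shoot apex and 4034 against 2127 for the rhythm difference. A block shared by the tissues gave 1484 and 1051 for time in the shoot apex and for the time difference. Without replicate 2, rhythm in the shoot apex passed for 974 genes and the rhythm difference for 370, and the latter for 1137 without replicate 1. Leaving out any of 6 libraries (either of shoot apex ZT94, either of leaf ZT102, shoot apex ZT102 replicate 2 or leaf ZT90 replicate 2) lowered the time difference to 325 to 340 genes. The filter on mean FPKM left 9021 genes higher in the shoot apex. Rescaling moved the genes higher in replicate 1 and 2 of the shoot apex from 3127 and 1004 to 1443 and 1988, and those higher in replicate 2 of leaves from 2127 to 4188. For rhythm, leaving out data gave 1 to 8 genes in the shoot apex (7 passing) and 6 to 10 in leaves (10 passing), lowest without replicate 2 and without replicate 1. With the shoot apex alone 5 passed there, without CYP79F1 (adjusted p = 0.115) and CYP79F2 (0.0595), and with a period of 26 h 6 passed, without CYP79F1 (0.05565). MAM1 in leaves no longer passed without ZT94 replicate 1, ZT102 replicate 2 or either ZT106 library. For the replicate difference in the shoot apex, 0 genes were higher in replicate 2, 1 after rescaling and 0 to 3 when a library was left out (3 without either ZT102 library). In leaves 0 were higher in replicate 1, 1 with leaves alone and 0 to 1 when a library was left out. With 1 replicate number the time tests could not be fitted, and the tissue difference used a tissue and time fit. The cause of these changes was not tested. Low read numbers limit CYP79F2 and, in the shoot apex, MAM3.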

Other observations

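Among the 50 genes whose course was most similar to the 10 aliphatic genes were several of methionine and sulfur metabolism outside the lists used, named after their values were seen. Mean Pearson's r with the 10 genes over 24 libraries, after tissue means were subtracted, was 0.828 for the aspartate kinase gene AK3 and 0.812 for the methionine synthase gene MS2. It was 0.789 for MTO1, the cystathionine gamma-synthase gene, 0.790 for the ATP sulfurylase gene APS3 and 0.780 for SIR, the sulfite reductase gene. Flavonoid genes stood in the same range, with 0.781 for CHIL, 0.771 for the chalcone synthase gene TT4, 0.761 for F3H and 0.758 for the chalcone isomerase gene TT5. These values describe 24 libraries that share times and replicates, and neither group was tested.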
